A study of Mus musculus with 4 samples.

Results

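The genes described are 10 regulators of meiotic arrest and exit, chosen by name: Mos, Fbxo43, Cdk1, Ccnb1, Ccnb2, Wee2, Cdc25b, Cdc20, Pttg1 and Fbxo5. They are 10 of the 20171 genes in the gene table, and 182 of the 68012 isoforms in the isoform table belong to them. All 10 genes had at least 1 copy per 100,000 UMIs in at least 4 oocytes, zygotes or embryos and were tested. Of the 182 isoforms, 122 passed the same filter, and the single isoform of Cdc25b did not.

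A mature mouse egg waits at metaphase of meiosis II until sperm entry. Cyclin B bound to the kinase CDK1 keeps the egg in M phase, the kinase MOS acts through the MAP kinase pathway to hold the arrest, and EMI2 (encoded by Fbxo43) blocks the anaphase-promoting complex (APC/C), the ubiquitin ligase that would destroy cyclin B and securin. At fertilization a rise of calcium removes EMI2, the APC/C with its activator CDC20 becomes active, WEE1B (encoded by Wee2) adds an inhibitory phosphate to CDK1, and the egg leaves meiosis. A growing oocyte stores many of its transcripts, and such stored transcripts are cleared in the early embryo, when transcription of the embryo's own genome begins.

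Single mouse cells were barcoded in gel beads, and their whole cDNA molecules were sequenced with PacBio long reads and counted by unique molecular identifiers (UMIs). Embryos came from superovulated C57BL/6J females, 6 to 8 weeks old, mated with DBA/2NCrl males by the study's methods, where the labels name the strain DBA/2J x C57BL/6J. They were collected at set hours after hCG: unmated metaphase II oocytes at 20, zygotes at 22 to 24, early 2-cell (E2C) at 30 to 32, late 2-cell (L2C) at 46 to 48, 4-cell at 54 to 56, 8-cell at 68 to 70, 16-cell and 32-cell at 78 to 80, and early blastocysts at 88 to 90. Cells of an embryo were averaged, and the embryo was the replicate: 10 oocytes and 9 zygotes, then 5 E2C and 6 L2C embryos, then 5 at the 4-cell stage and 4 each at the 8-cell and 16-cell stages. Many later embryos were sampled in part, with 11 cells in all at L2C, 17 at 4-cell, 26 at 8-cell and 38 at 16-cell. L2C embryo 1 is a single cell of 17971 UMIs, and 1 cell of 4-cell embryo 2 has 4985. The 22 32-cell blastomeres, 13 blastocyst cells and 5 E14 mouse embryonic stem cells (mESC, a cultured line) name no embryo and are given as range and median, with no test. The batch with 4 intact, 6 1/2 and 6 1/4 oocytes is described at the end. No label says whether the embryos came from separate litters, so the p-values cover the spread between these embryos only.

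A value is given in copies per 100,000 UMIs of a cell, called copies below. Such a value is relative, so fewer molecules of a gene and more molecules of all others cannot be told apart. The depth ran from 4985 to 389775 gene UMIs per cell with a median of 38914, and oocytes (166731 to 255836) and zygotes (194072 to 389775) were deeper than the blastomeres. The oocyte markers Zp1, Zp2, Zp3, Gdf9, Bmp15, Oosp1 and H1foo were all present in the oocytes, with a summed level of 3070 to 4124 copies, and the cumulus and granulosa cell markers, of which 8 of 11 are in the table, summed to between 4.42 and 9.81 copies.

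The 3 zygotes sequenced in run 3 stood apart from the other 6. Their oocyte markers summed to between 3425 and 3701 copies, inside the range of the oocytes, against 1577 to 2547 in the 6 zygotes of runs 1 and 2. H1foo, the oocyte linker histone, was at 1686 to 1903 copies in these 3 zygotes and at 331 to 888 in the other 6. The gene levels and the shares of 3′ ends were also compared without them, and the isoform levels were not. The run is also known for the 32-cell blastomeres (run 2), the blastocyst cells (run 1) and the mESCs (run 3). Stage and run cannot be told apart among these cells. The run of the other embryos is not known, and the part of the run in later steps was not tested.

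A gene was called changed between stages where its log2 fold change exceeded 1 in either direction and its unadjusted limma p was under 0.01. Fold changes are on the scale of log2(copies + 1), which understates the change of genes at low copies. From oocyte to zygote 1 of the 10 genes was called, lower, where 0.325% of all 11682 genes tested were called lower and 2.92% higher. From zygote to E2C 1 gene was called higher and 1 lower, against 4.52% and 2.75% of all genes. From E2C to L2C 2 genes were called higher and 5 lower, against 25.6% and 22.8% of all genes. This was the step with the most calls among the 10 genes, and their median log2 fold change was -1.15 where that of all genes was 0.03. From L2C to 4-cell 1 gene was called higher, against 2.41% of all genes higher and 4.28% lower. From 4-cell to 8-cell 1 gene was called lower, against 10.5% of all genes lower and 4.47% higher, at a median log2 fold change of -0.16 over all genes. From 8-cell to 16-cell 0 of the 10 were called, against 1.9% higher and 1.46% lower over all genes, and 1 of the 10, Ccnb1, had an unadjusted p under 0.05 with limma. Between oocytes and 16-cell embryos 2 genes were called higher and 6 lower, against 26.8% and 24% of all genes.

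**Figure D1:**
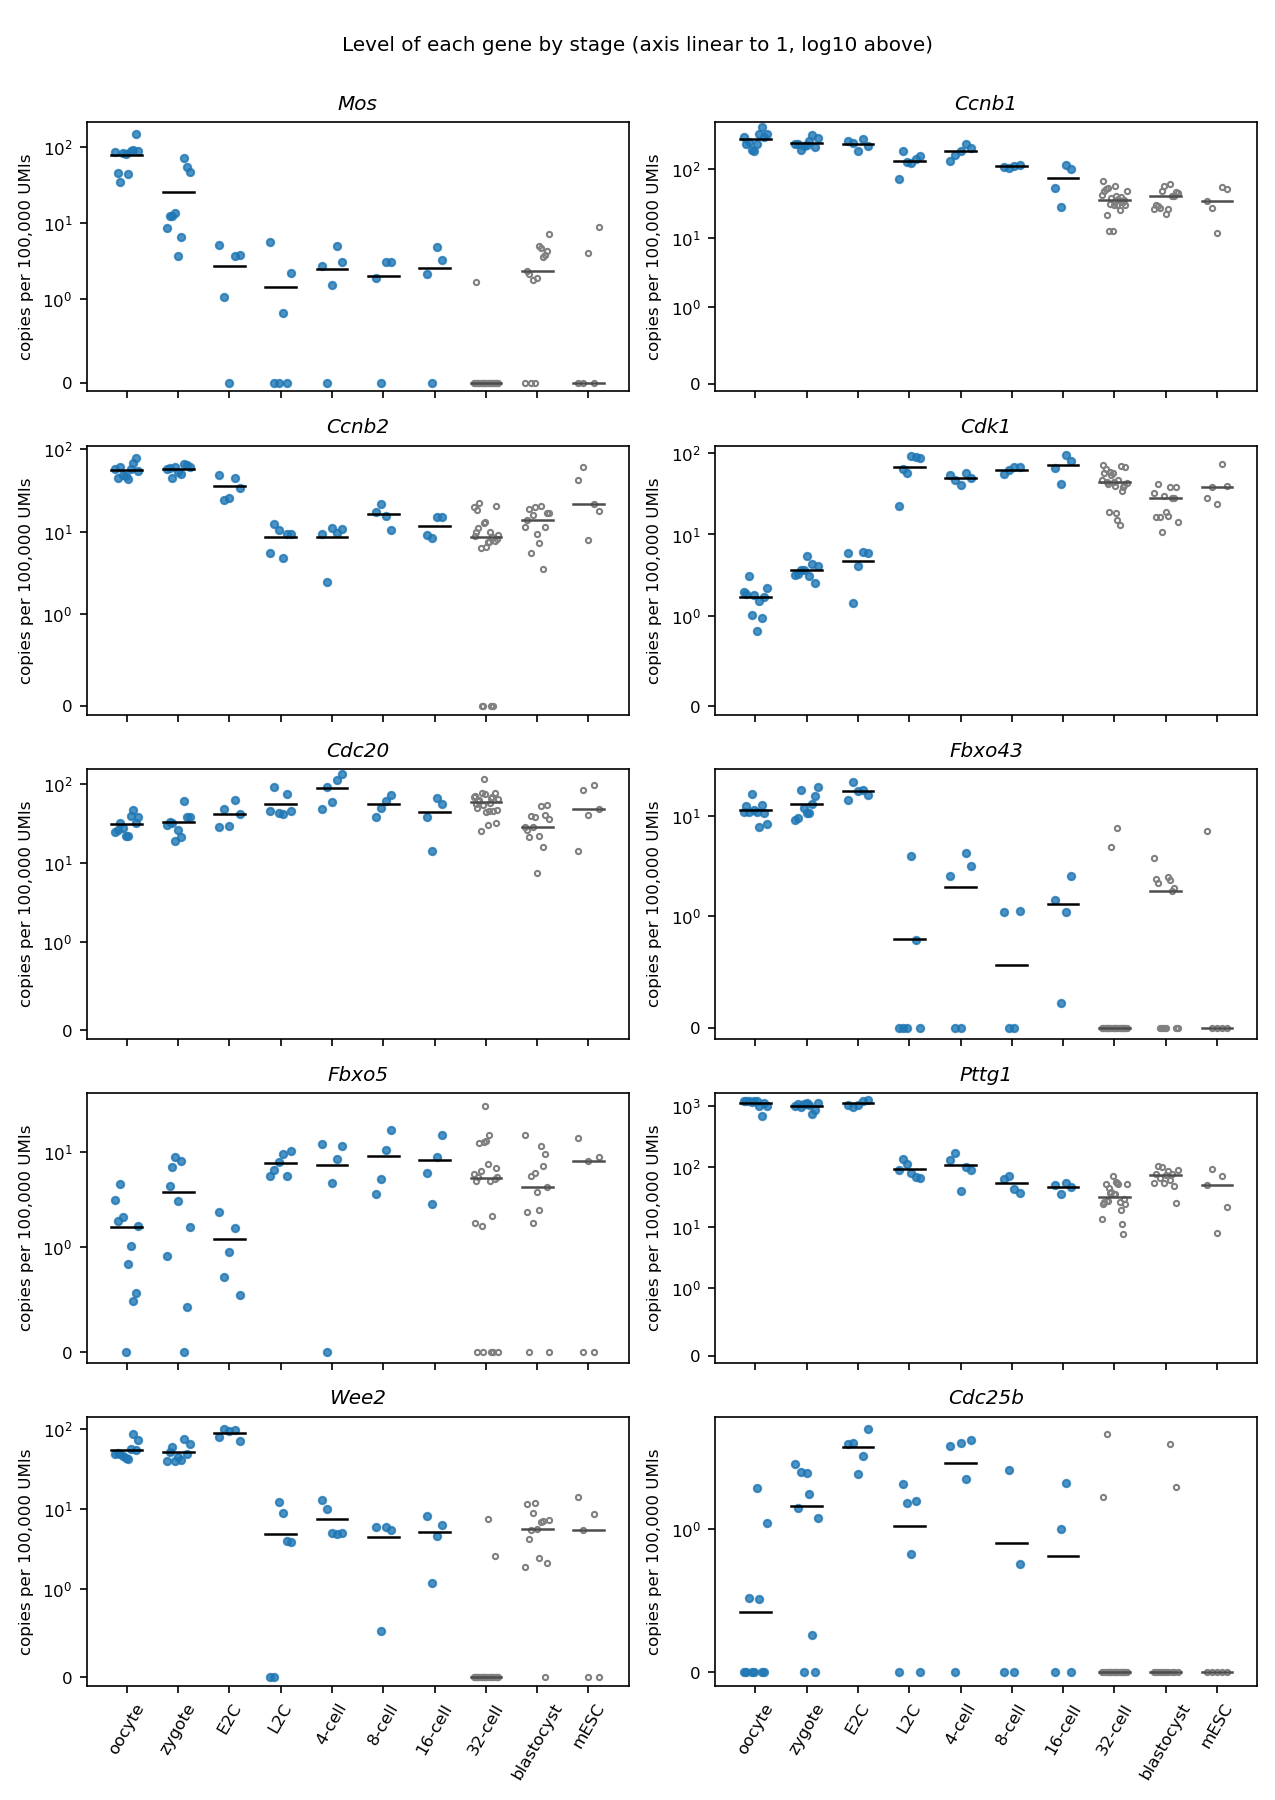
Level of each gene in copies per 100,000 UMIs (vertical axis, linear up to 1 and log10 above) by stage. Filled points are oocytes, zygotes or embryos, open points are single 32-cell, blastocyst or mESC cells, and bars are means (medians for the open points); Mos goes from a mean of 78.1 copies in oocytes to 2.72 in E2C, Pttg1 from 1093 in E2C to 90.9 in L2C, and Cdk1 from 4.70 to 68.5 between the same stages.

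**Figure D2:**
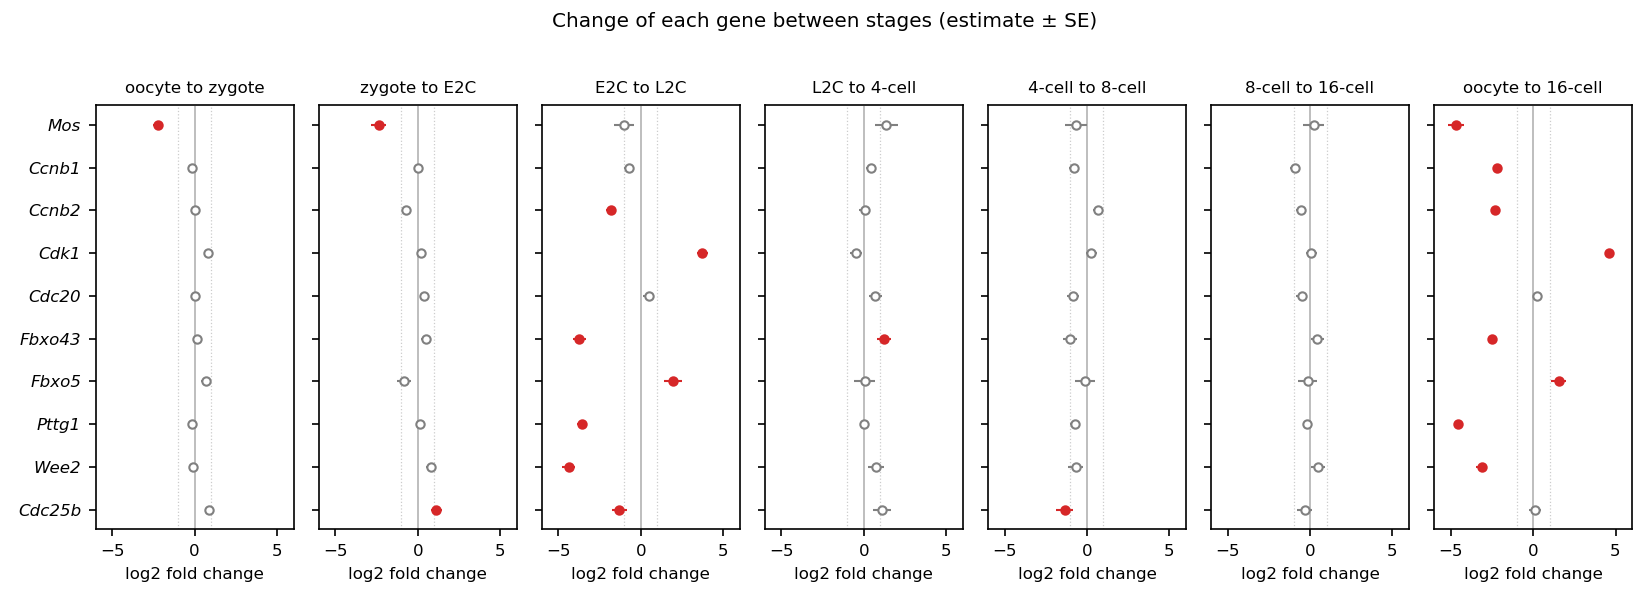
Log2 fold change (horizontal axis) of each gene at the 6 steps and between oocytes and 16-cell embryos, with the standard error as a bar. Filled points passed both limits of the limma test and dotted lines mark a log2 fold change of 1; calls gather at the step from E2C to L2C.

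Mos, the kinase that keeps MAP kinase active in the egg, was the only one of the 10 genes called lower before the first cleavage. It lies at chr4:3870657-3872105 (GRCm38, minus strand) and has a single annotated transcript. In the oocytes Mos was at 34.5 copies in the lowest, 84.0 at the median and 145 in the highest. In the zygotes the lowest was at 3.62 copies, the median at 12.4 and the highest at 70.6. The ranges of oocytes and zygotes overlapped, and the overlap came from the 3 zygotes of run 3. Mos was lower in zygotes by limma (log2 fold change -2.21 ± 0.32 SE, adjusted p = 1.14e-06), and without those 3 zygotes the log2 fold change was -2.93 (adjusted p = 4.14e-12).

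Within each run the oocytes lay above the zygotes. In run 1 the 5 oocytes were at 34.5 to 86.4 copies and the 4 zygotes at 8.63 to 13.4. In run 2 the single oocyte was at 43.3 and the 2 zygotes at 3.62 and 6.51. In run 3 the 4 oocytes were at 87.3 to 145 copies and the 3 zygotes at 45.8 to 70.6. With the sequencing run as a block in a fit of oocytes and zygotes alone the log2 fold change was -1.83 ± 0.27 (SE), with an adjusted p of 0.00209 by limma.

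**Figure D3:**
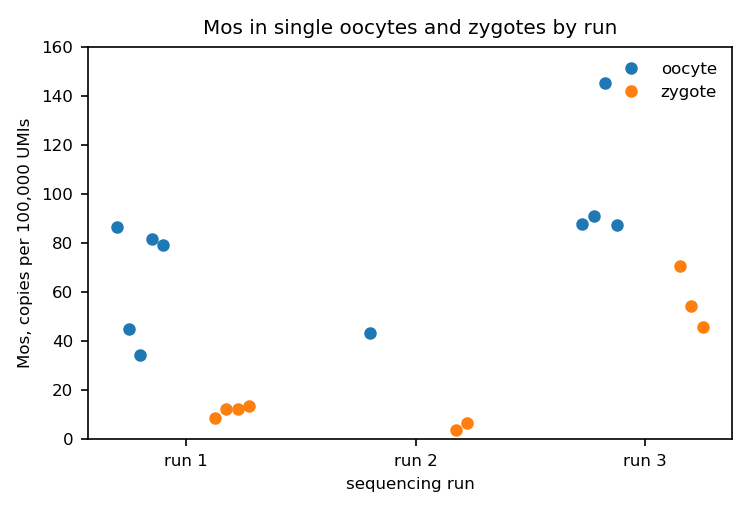
Mos in copies per 100,000 UMIs (vertical axis) in each of 10 oocytes and 9 zygotes, by sequencing run (horizontal axis). Zygotes lie below the oocytes of their own run in all 3 runs, and the zygotes of run 3 (45.8 to 70.6 copies) overlap the oocytes of runs 1 and 2.

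Mos was lower again in E2C embryos, which held 5.11, 1.05, 0, 3.65 and 3.78 copies. The log2 fold change from zygote to E2C was -2.38 ± 0.44 (SE, adjusted p = 7.62e-05), and without the 3 zygotes of run 3 it was -1.66 (adjusted p = 0.00163, limma in both). From then on the level stayed low: means were 1.43 ± 2.20 copies in L2C (SD, n = 6), 2.43 ± 1.83 in 4-cell (n = 5), 1.97 ± 1.43 in 8-cell (n = 4) and 2.52 ± 2.00 in 16-cell embryos (n = 4), and no step among these was called. These late values rest on 5 to 17 UMIs per stage. Mos was also found in 10 of 13 blastocyst cells and 2 of 5 mESCs but in 1 of 22 32-cell blastomeres.

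The same late cells held other oocyte transcripts. H1foo had UMIs in all 5 mESCs (32.8 to 71.9 copies) and all 13 blastocyst cells (84.3 to 230.6), while Zp1 and Zp2 were at 0 in both. The 32-cell blastomeres had a median of 3.52 copies of H1foo. Of the 7 oocyte markers 4 had UMIs in the mESCs, with a sum of 87.4 to 180 copies, and 6 had UMIs in the 16-cell blastomeres, with a sum of 0 to 504. The part of oocyte RNA outside oocytes in the late values of Mos, Fbxo43, Wee2, Pttg1 and the other genes was not tested. The 32-cell blastomeres, blastocyst cells and mESCs are each of a different run, so stage and run cannot be told apart among them.

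Fbxo43 encodes EMI2, the APC/C inhibitor of the arrested egg (chr15:36150060-36164884, minus strand). Its transcript was at 7.62, 10.9 and 16.5 copies in oocytes (lowest, median, highest of 10) and at 9.08, 11.9 and 19.1 in zygotes (of 9), ranges that overlapped, with a log2 fold change of 0.12 ± 0.20 (SE). E2C embryos held 14.4, 21.7, 17.5, 17.9 and 16.2 copies. In L2C embryos 4 of 6 had none and the others had 0.784 and 4.00 copies. All E2C embryos lay above all L2C embryos, and the log2 fold change was -3.73 ± 0.37 (SE, limma adjusted p = 6.90e-13). In 4-cell embryos Fbxo43 was at 2.49, 0, 0, 4.20 and 3.15 copies, which passed the limits for a rise from L2C at an adjusted p of only 0.0951 and with overlapping ranges. That call was lost when 4-cell embryo 4 (log2 fold change 0.83) or embryo 5 was left out, and it rests on 5 UMIs in L2C and 15 in 4-cell embryos.

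Cdk1, the M-phase kinase, ran opposite to the stored transcripts (chr10:69335146-69352938, minus strand). Oocytes held 0.833, 1.74 and 3.09 copies at the lowest, the median and the highest, and zygotes 2.54, 3.61 and 5.44. The log2 fold change of 0.78 ± 0.17 (SE, limma adjusted p = 0.000568) stayed under the fold limit, and on recovered UMIs edgeR gave 1.10 and DESeq2 1.06, which passed it. The difference has the same sign within each run, with run 1 oocytes at 1.03 to 3.09 copies and run 1 zygotes at 3.18 to 3.67. E2C embryos held 5.89, 1.42, 4.14, 6.13 and 5.94 copies, and L2C embryos 22.3 (4 UMIs), 64.0, 57.2, 91.8, 88.7 and 86.8. No embryo of the groups overlapped, and the rise of 3.74 ± 0.32 on the log2 scale (SE) had a limma adjusted p of 1.86e-15. The level then held, with means of 49.4 ± 6.32 copies in 4-cell (SD, n = 5), 62.7 ± 5.75 in 8-cell (n = 4) and 70.9 ± 23.0 in 16-cell embryos (n = 4). Medians over single cells were 43.9 copies at 32-cell, 28.2 in blastocysts and 38.2 in mESCs.

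Ccnb2 and Ccnb1 encode cyclins that pair with CDK1. Ccnb2 (chr9:70407692-70421547, minus strand) was at 55.8 ± 10.8 copies in oocytes (SD, n = 10) and 56.8 ± 6.91 in zygotes (n = 9), with ranges that overlapped and a log2 fold change of 0.03 ± 0.15 (SE). E2C embryos held 48.7, 24.3, 25.1, 44.7 and 34.1 copies. In L2C embryos the lowest was at 4.82, the median at 9.24 and the highest at 12.47. The groups did not overlap, and Ccnb2 fell by 1.81 ± 0.29 on the log2 scale (SE, limma adjusted p = 2.26e-07). It stayed at 8.64 ± 3.53 copies in 4-cell (n = 5), 16.2 ± 4.65 in 8-cell (n = 4) and 11.8 ± 3.60 in 16-cell embryos (n = 4).

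Ccnb1, the cyclin B1 gene, lies at chr13:100778650-100786570 on the minus strand. It was held at 274 ± 68.6 copies in oocytes (SD, n = 10), 241 ± 39.0 in zygotes (n = 9) and 237 ± 35.2 in E2C embryos (n = 5). E2C embryos held 256, 245, 187, 279 and 219 copies, and L2C embryos 72.3 at the lowest, 134 at the median and 185 at the highest. The groups did not overlap, but the log2 fold change of -0.73 ± 0.27 (SE, limma adjusted p = 0.0181) stayed under the fold limit. With recovered UMIs edgeR gave -1.01 and DESeq2 -1.31 at this step, and both passed the limits. By the 16-cell stage the 4 embryos were at 52.9, 28.1, 115 and 102 copies, below all oocytes (187 to 409), and the log2 fold change from oocyte to 16-cell was -2.19 ± 0.22 (SE, adjusted p = 1.40e-13). Medians were 36.5 copies in 32-cell blastomeres, 40.7 in blastocyst cells and 35.0 in mESCs.

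The isoform annotation gives a 3′ end for each Ccnb1 isoform, and end shares are of the UMIs counted by isoform. The Ccnb1 isoforms held 82.4% of the UMIs counted for the gene in oocytes, 74.7% in E2C and 89.7% in L2C embryos. The ends of the other molecules are not known. The 3′ ends of the Ccnb1 isoforms fell into 5 clusters when ends within 25 bases were joined, and the commonest end of each of the first 4 lay 124, 165, 483 and 949 bases after the stop codon, in the 3′ untranslated region of the principal transcript. The fifth lay 2 bases past the annotated end of that region, which is 1028 bases long. Each end has a poly(A) signal hexamer, AATAAA or ATTAAA, in the 100 bases searched, and ends 1 and 2 share one. The bases searched were those before the end, or the last 100 annotated ones for an end past the annotated transcript end. For ends 1 to 5 the hexamer lay 33, 74, 15, 30 and 20 bases before the commonest end. The stretches around the hexamers (GRCm38, minus strand, from the GENCODE transcript) are shown because the shares of the ends differed between E2C and L2C embryos. They are at chr13:100779575-100779604, chr13:100779198-100779227, chr13:100778747-100778776 and chr13:100778656-100778685, with the hexamer in capitals:
Ccnb1 ends 1 and 2: tacttgctcttcAATAAAggttgtgacttc
Ccnb1 end 3: aggatgttcaaaATTAAAggtgtgttttaa
Ccnb1 end 4: gatatcaagttgAATAAAatttattggtgg
Ccnb1 end 5: ctttatgttgctAATAAAcatagttttcga
Of 21736 principal transcripts 73.9% hold AATAAA or ATTAAA in their last 100 bases. The cytoplasmic polyadenylation motifs TTTTAT and TTTTAAT, read on the transcript strand and with 0 overlaps with the hexamer, are in 16.5% of the same windows: end 3 of Ccnb1 has 1 TTTTAT, end 4 has 1 TTTTAAT, and ends 1, 2 and 5 have neither.

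In oocytes most Ccnb1 UMIs ended at the distal sites, and in L2C embryos most ended at the proximal ones. Ends 1 and 2 together took 29.0 ± 4.87% of Ccnb1 UMIs in oocytes (SD, n = 10), 33.9 ± 4.29% in zygotes (n = 9), 38.2 ± 6.88% in E2C (n = 5) and 82.2 ± 8.66% in L2C embryos (n = 5 with 20 or more UMIs). The most distal site, end 5, took 34.5, 22.6, 23.8, 46.0 and 36.3% in the 5 E2C embryos and 4.79, 5.51, 0, 7.19 and 6.70% in the 5 L2C embryos. No E2C and L2C embryo overlapped, and the difference of -27.8 percentage points had p = 0.00794 by the exact two-sided permutation test, the smallest p that 5 against 5 allows. From oocyte to zygote the share at end 5 differed by -8.60 points (exact permutation p = 0.0431, adjusted 0.205), and by -12.2 without the 3 zygotes of run 3 (p = 0.0117, adjusted 0.0743). Adjusted over the 19 gene and step pairs tested, the p from E2C to L2C was 0.129, and 0 of the 19 pairs had an adjusted p under 0.05, with 4 under 0.05 before adjustment. Where ends within 100 bases were joined, ends 4 and 5 became 1 site, which held 53.2 ± 6.34% in E2C and 6.34 ± 3.86% in L2C embryos (SD, n = 5 each), and the exact permutation p of 0.00794 became 0.0317 after adjustment over the pairs tested then.

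The shares after L2C lay between those of E2C and L2C embryos. With ends 4 and 5 summed it was 14.9 ± 5.46% in 4-cell (SD, n = 5), 27.6 ± 7.30% in 8-cell (n = 4) and 16.3 ± 5.90% in 16-cell embryos (n = 4). The 5 L2C embryos (0 to 9.80%) and the 4 8-cell embryos (20.9 to 37.8%) did not overlap. From L2C to 4-cell the share at end 5 differed by 6.61 points (exact permutation p = 0.0397, adjusted 0.205). H1foo had a median over cells of 38.1 copies in L2C, 99.9 in 4-cell, 52.0 in 8-cell and 71.3 in 16-cell embryos, and the part of oocyte RNA in these shares was not tested. In pooled cells, end 5 alone took 5.38% of 260 Ccnb1 UMIs at 32-cell and 10.3% of 194 in blastocysts, and mESCs, with 35 UMIs in all, had 34.3%. The UMI-weighted mean length of Ccnb1 isoforms was 1934 ± 133 bases in E2C and 1666 ± 98.3 in L2C embryos (SD, n = 5 each), with an exact permutation p of 0.00794 and 0.198 after adjustment over the pairs tested for length.

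**Figure D4:**
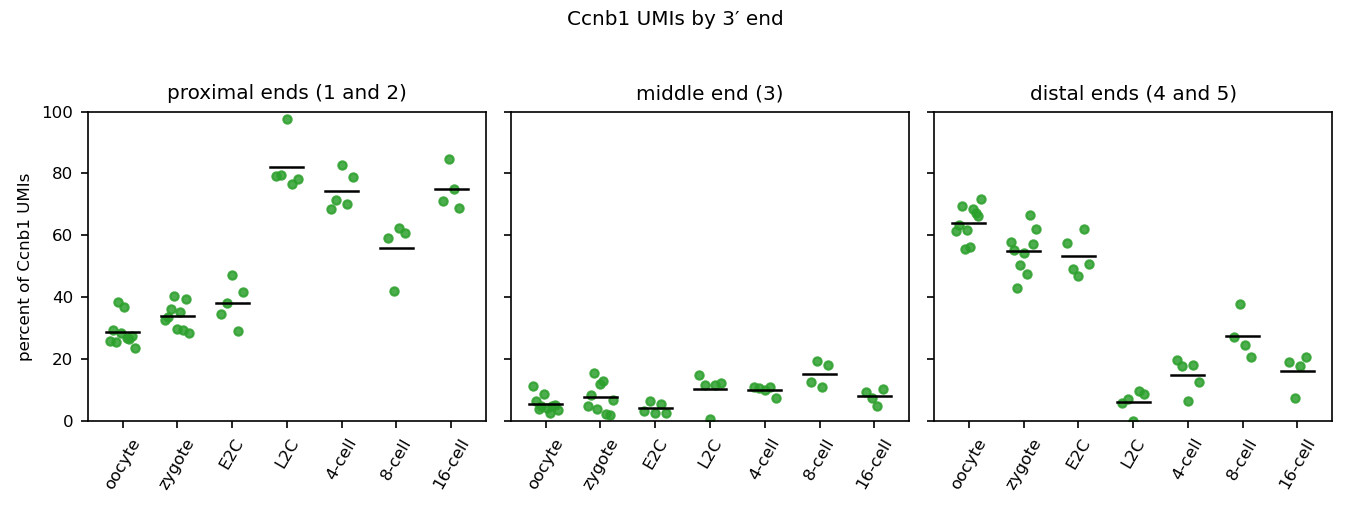
Percent of Ccnb1 UMIs (vertical axis) at the proximal ends 1 and 2, the middle end 3 and the distal ends 4 and 5, in each oocyte, zygote or embryo with at least 20 Ccnb1 UMIs, by stage (horizontal axis). Points are oocytes, zygotes or embryos and bars are means; the distal share drops from 53.2% in E2C to 6.34% in L2C embryos.

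The leading isoforms of Ccnb1 restate these shares on their own scale of copies, from the same UMIs. End 5 had 4927 UMIs, of which 4528 belong to the first isoform below. The isoform that ends at the distal site (PB.21865.176, 9 exons, 2612 bases) was at 139 ± 60.0 copies in oocytes (SD, n = 10), 84.5 ± 43.8 in E2C (n = 5) and 6.32 ± 5.04 in L2C embryos (n = 6), a log2 fold change from E2C to L2C of -3.66 ± 0.53 (SE, limma adjusted p = 1.16e-07). The isoform that ends at proximal end 2 (PB.21865.590, 9 exons, 1744 bases) was at 71.1 ± 17.1 copies in E2C and 97.5 ± 22.6 in L2C embryos, with a log2 fold change of 0.52 ± 0.36 (SE) that was not called. Of 40 Ccnb1 isoforms tested at this step 0 were called higher and 13 lower. At zygote to E2C 3 Ccnb1 isoforms were called higher, and at oocyte to zygote 1.

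Over all 10 genes the 122 isoforms tested gave 1 higher and 2 lower calls from oocyte to zygote (1.16% and 0.32% of all 29409 isoforms tested), both lower ones being the 2 Mos isoforms. From zygote to E2C there were 3 higher and 2 lower calls (2.23% and 2.94% of all isoforms). From E2C to L2C there were 9 higher and 41 lower calls (12.9% and 13.1% of all isoforms), and 7 of the 9 higher were Cdk1 isoforms while Wee2 had 12 and Pttg1 9 of the lower. With a pseudocount of 5 the calls at this step numbered 22 instead of 50.

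Ccnb2 carries a doubled poly(A) signal. Its ends fell into 2 clusters, of which the first held 58.3% of its UMIs, and the stretches around both hexamers, at chr9:70407796-70407825 and chr9:70407693-70407722, lie 103 bases apart and share a run of 17 bases; they are shown with the hexamer in capitals:
Ccnb2 end 1: gtattgatgaaaAATAAAgctattgatttt
Ccnb2 end 2: gtattgaaggaaAATAAAgctattgatcta
Use of end 2 was 42.5 ± 7.58% in oocytes (SD, n = 10), 46.2 ± 8.11% in zygotes (n = 9) and 42.5 ± 5.62% in E2C embryos (n = 5), with overlapping ranges. In 8-cell embryos it was 22.2 to 34.5% (n = 3 with 20 or more UMIs), and no step after E2C was tested because too few L2C and 4-cell embryos had 20 UMIs. Of the 20 bases after the commonest end of cluster 1, 9 are A, and the part of priming inside the transcript at this end was not tested. Most Ccnb2 cDNAs counted by isoform were short. In oocytes and in E2C embryos 100% of these UMIs held the stop codon of the principal transcript. The paper proposes that some transcripts without a start codon might stem from incomplete reverse transcription. Whether this holds for Ccnb2 was not tested. Only 20.6% of its UMIs in oocytes and 27.1% in E2C embryos came from isoforms that span both the start and the stop codon of the principal transcript, against 74.2% and 68.6% for Ccnb1, and the isoform with the most UMIs (PB.76658.33) has 2 exons and 370 bases. The Ccnb2 isoforms together held 108% to 128% of the UMIs of the gene table by stage, so the tables count this gene differently.

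Wee2, the oocyte kinase that inhibits CDK1 at exit from meiosis, lies at chr6:40439088-40466813 on the plus strand. It was at 54.8 ± 14.1 copies in oocytes (SD, n = 10) and 51.4 ± 12.6 in zygotes (n = 9), with overlapping ranges. E2C embryos held 79.1, 98.9, 94.3, 96.1 and 70.1 copies, a log2 fold change from zygotes of 0.83 ± 0.31 (SE, limma adjusted p = 0.057) that was under the fold limit. In L2C embryos the lowest was at 0, the median at 3.91 and the highest at 12.2 copies, so that no E2C and L2C embryo overlapped. The log2 fold change of -4.38 ± 0.42 (SE, limma adjusted p = 1.47e-13) was the largest fall among the 10 genes at this step on the scale of log2(copies + 1). Over the alternatives run, the strongest value was -5.33 for Wee2 and -6.04 for Fbxo43. Later means lay between 4.40 and 7.54 copies on 31 to 49 UMIs a stage, and blastocyst cells had a median of 5.59 copies and 32-cell blastomeres 0.

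The share of Wee2 UMIs at its most distal end, 21 bases past the annotated end of the transcript, was 91.8 ± 4.38% in oocytes (SD, n = 10) and 83.4 ± 8.80% in zygotes (n = 9). The ranges, 84.3 to 99.3% and 66.2 to 92.1%, overlapped, and the exact permutation p was 0.0136, or 0.129 after adjustment. The 3 zygotes of run 3 were at 91.0 to 92.1% and the other 6 at 66.2 to 88.1%. Without those 3 the zygotes were at 79.3 ± 7.93% (n = 6), still overlapping the oocytes, and the exact permutation p was 0.0015, or 0.0285 after adjustment over the 19 pairs. In E2C embryos the share was 79.4 ± 4.84% (n = 5). The stretch around the hexamer of that end is at chr6:40466776-40466805 on the plus strand. It is shown because the window searched for that end, the last 100 annotated bases, holds 1 TTTTAT and 1 TTTTAAT. The 21 bases past the annotated end were not read. The stretch itself holds the TTTTAT but not the TTTTAAT, and the hexamer is in capitals:
Wee2 end 3: cagatcattgtaAATAAAgattttatctta
Between 33.5% (E2C) and 45.9% (oocytes) of Wee2 UMIs spanned both codons in the stages where it was abundant. The stop codon was held by 93.4% in E2C and 94.3% in oocytes. Wee2 isoforms held 60.3% of the UMIs counted for the gene in oocytes, 59.8% in zygotes and 48.7% in E2C embryos. The shares of Wee2 thus cover part of the molecules.

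Cdc25b encodes a phosphatase that activates CDK1 at meiotic resumption (chr2:131186949-131198497, plus strand). It was scarce, with 9 UMIs over all oocytes, 36 in zygotes and 34 in E2C embryos. Oocytes had 0 copies at the lowest and at the median and 2.08 at the highest, and zygotes 0, 1.44 and 3.18. E2C embryos held 4.58, 4.60, 2.65, 3.65 and 5.94 copies, a called rise from zygotes of 1.14 ± 0.34 on the log2 scale (SE, limma adjusted p = 0.0163). L2C embryos were at 0, 2.22, 1.58, 0.828, 1.64 and 0 copies, all below the E2C embryos, a called fall of 1.29 ± 0.47 (SE, adjusted p = 0.0152). The 4-cell embryos held 4.35, 0, 4.67, 2.42 and 4.87 copies and the 8-cell embryos 0, 2.85, 0 and 0.753, and that step was called lower (log2 fold change -1.36 ± 0.50, SE, adjusted p = 0.0554) although the groups overlapped. Cdc25b had too few UMIs to pass the low-count filter of edgeR and DESeq2. The first of the 3 calls was lost without the 3 zygotes of run 3, where the log2 fold change was 0.86 and the rise from oocyte to zygote passed the limits instead (1.13, limma adjusted p = 0.000611). The fall to L2C was lost without E2C embryo 1, 2, 4 or 5 (log2 fold change -1.42 to -1.21 over all embryos left out in turn). That from 4-cell to 8-cell was lost without any of 4-cell embryos 1, 3, 4 and 5 and 8-cell embryos 1, 3 and 4 (-1.74 to -1.09). Cdc25b had 0 UMIs in 5 mESCs, which allows up to 2.90 copies from the 103590 UMIs of these cells.

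Cdc20, the APC/C activator that drives anaphase, was the only one of the 10 with no call at any of the 6 steps or between oocytes and 16-cell embryos (chr4:118432901-118437352, minus strand). Means were 30.8 ± 8.05 copies in oocytes (SD, n = 10), 33.0 ± 12.4 in zygotes (n = 9), 41.7 ± 14.0 in E2C (n = 5), 56.0 ± 20.6 in L2C (n = 6), 87.7 ± 35.2 in 4-cell (n = 5), 54.9 ± 15.2 in 8-cell (n = 4) and 43.6 ± 23.0 in 16-cell embryos (n = 4). Neighbouring stages overlapped throughout, while the oocytes (21.6 to 45.8 copies) and the 4-cell embryos (47.4 to 131) did not, a difference that was not tested, and the log2 fold change between oocytes and 16-cell embryos was 0.26 ± 0.28 (SE). The call for 4-cell to 8-cell was made when 4-cell embryo 1 (log2 fold change -1.04) or 8-cell embryo 4 (-1.06) was left out.

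The stretch around the hexamer of Cdc20 is at chr4:118432905-118432934. The commonest ends of the 2 clusters of Cdc20 lie 33 and 79 bases past the hexamer. They lie 17 and 63 bases past the annotated end, and those bases were not read. The window searched for both ends was the last 100 annotated bases. The stretch is shown because that window is the only one among the 10 genes with 2 TTTTAT motifs. The stretch holds neither of the 2 in full, and the hexamer is in capitals:
Cdc20: tttattttttctAATAAAgttcgtatcttc
The isoform of Cdc20 with the most UMIs (PB.53066.6, 10 exons, 1910 bases) ends at the more distal of 2 end clusters, which held 49.4 ± 15.8% of Cdc20 UMIs in oocytes (SD, n = 10), 49.2 ± 21.03% in E2C (n = 5) and 74.7 ± 13.0% in L2C embryos (n = 5). E2C and L2C embryos overlapped, at 25.4 to 74.5% and 52.3 to 85.4%, and the exact permutation p was 0.0635 (0.241 after adjustment). The share of Cdc20 UMIs spanning both codons was 53.5% in E2C and 78.7% in L2C embryos, from 312 and 328 UMIs. At both stages 100% held the stop codon, and the part of incomplete reverse transcription was not tested.

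Pttg1 encodes securin, the inhibitor of separase that the APC/C destroys at anaphase (chr11:43420250-43426251, minus strand). Oocytes were at 666, 1176 and 1216 copies (lowest, median, highest), zygotes at 723, 1020 and 1104, and E2C embryos at 1042, 969, 1023, 1186 and 1246. These groups overlapped and their steps were not called. L2C embryos held 65.2 copies at the lowest, 83.6 at the median and 135 at the highest, far under every E2C embryo, and Pttg1 fell by 3.59 ± 0.25 on the log2 scale (SE, limma adjusted p = 1.93e-18). The 16-cell embryos were at 49.2, 35.1, 53.8 and 46.8 copies, and the log2 fold change from oocytes was -4.53 ± 0.20 (SE, adjusted p = 4.56e-28). Medians were 32.1 copies at 32-cell, 72.7 in blastocysts and 49.1 in mESCs. The oocyte marker Oosp1, at a median of 1153 copies in oocytes, had medians of 10.2, 114 and 44.0 in the same cells. The part of oocyte RNA in the late Pttg1 values was not tested.

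Nearly all Pttg1 UMIs in the isoform table, 98.4%, shared 1 end cluster, whose commonest end lies 4 bases past the annotated end. The hexamer (chr11:43420271-43420300, minus strand) is in capitals:
Pttg1: gtatgttgtattAATAAAgcatttgtgcat
Of its leading isoforms PB.10817.8 (6 exons, 1626 bases) was at 215 ± 14.7 copies in E2C (SD, n = 5) and 8.00 ± 4.84 in L2C embryos (n = 6), a log2 fold change of -4.67 ± 0.40 (SE, limma adjusted p = 3.36e-14). PB.10817.6 (5 exons, 1219 bases) was at 245 ± 27.2 and 27.6 ± 18.5 copies, a log2 fold change of -3.44 ± 0.40 (SE, adjusted p = 4.38e-10). The difference between these falls was not tested. The isoforms of Pttg1 held 32.5% to 40% of the UMIs counted for the gene by stage, and those of Fbxo43 33.3% to 55.7%, so isoform values of these genes cover part of the molecules.

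Fbxo5 encodes EMI1, the APC/C inhibitor of mitotic cells (chr10:5799160-5805600, minus strand). Oocytes held 0, 1.34 and 4.63 copies at the lowest, the median and the highest, and zygotes 0, 3.02 and 8.76. Without the zygotes of run 3 (0 to 1.62 copies) a rise of 1.14 from oocyte to zygote (limma adjusted p = 0.002) and a fall of 1.31 on the log2 scale from zygote to E2C (adjusted p = 0.0158) passed the limits, which neither did with all zygotes. E2C embryos were at 2.29, 0.71, 0.948, 1.58 and 0.543 copies and L2C embryos at 5.56, 6.50, 7.89, 9.51, 5.56 and 10.3, with no overlap. The rise was 1.96 ± 0.57 on the log2 scale (SE, limma adjusted p = 0.00245), from 11 UMIs in E2C and 46 in L2C. Later means lay between 7.27 and 9.01 copies.

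The leading Fbxo5 isoforms changed at different steps. PB.5464.30 (1452 bases, ending at chr10:5799479) was at 1.97 ± 2.28 copies in zygotes (SD, n = 9), was called lower in E2C embryos (0.146 ± 0.326 copies, n = 5, log2 fold change -1.10 ± 0.38, SE, limma adjusted p = 0.072) and was at 0 in all 4-cell and 8-cell embryos, with 1 UMI in L2C and 2 in 16-cell embryos (0.598 ± 1.06 copies, n = 4). PB.5464.1 (2386 bases, ending at chr10:5799155) was at 0 in all 10 oocytes, at 0.522 ± 0.8005 copies in zygotes (n = 9, 8 UMIs), at 0.474 ± 0.701 in E2C (n = 5, 3 UMIs) and at 5.46 ± 1.85 in L2C embryos (n = 6), a log2 fold change of 2.05 ± 0.47 (SE, adjusted p = 0.000409). The isoforms of Fbxo5 had 15 UMIs in oocytes, 6 in E2C and 27 in L2C embryos, so these values rest on few molecules. The end of PB.5464.30 has no AATAAA or ATTAAA in the 100 bases before it, and 9 of the 20 bases after it are A. The part of priming inside the transcript at this end was not tested.

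**Figure D5:**
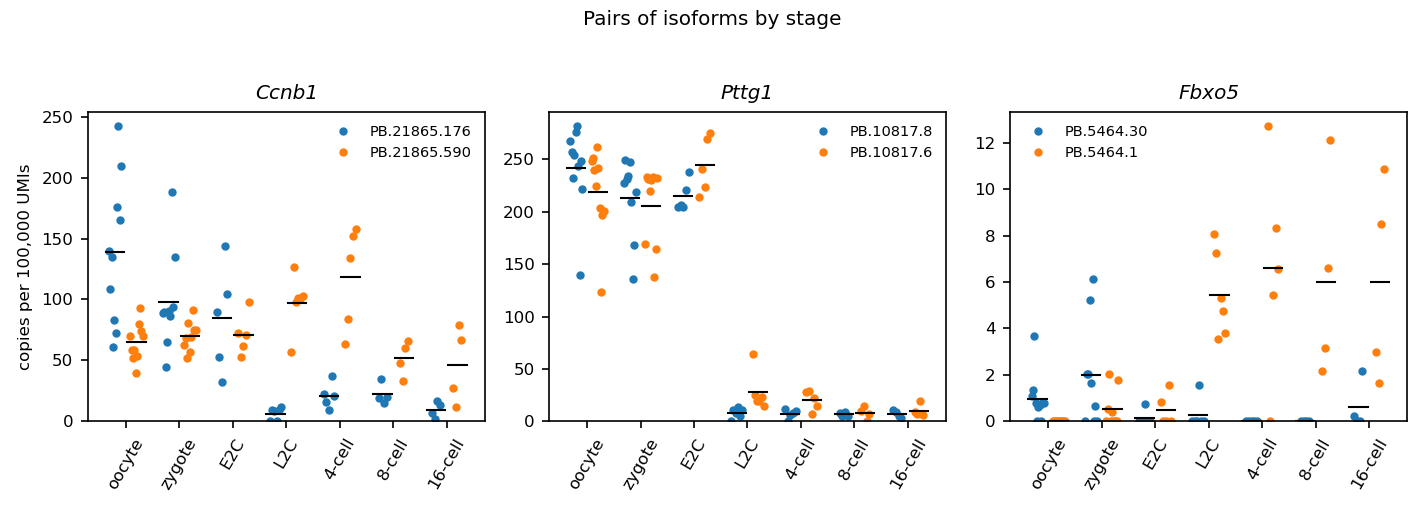
Copies per 100,000 UMIs (vertical axes) of a pair of isoforms of Ccnb1, Pttg1 and Fbxo5 in each oocyte, zygote or embryo, by stage, with bars at the means. Of each pair, the isoform with the longer 3′ end of Ccnb1 falls from 84.5 to 6.32 copies at E2C to L2C, both Pttg1 isoforms fall, and Fbxo5 isoform PB.5464.1 rises from 0.474 to 5.46.

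The steps that matter can be put side by side. Between oocytes and 16-cell embryos, Cdk1 (log2 fold change 4.62) and Fbxo5 (1.57) were higher, and Mos (-4.69), Pttg1 (-4.53), Wee2 (-3.12), Fbxo43 (-2.46), Ccnb2 (-2.31) and Ccnb1 (-2.19) were lower. The groups did not overlap for any of them except Fbxo5. The share of all genes without overlap was not worked out, and 26.8% of all genes were called higher and 24% lower here. Over the 43 oocytes, zygotes and embryos, the gene whose log2 level followed Mos most closely was Plat (Pearson r 0.95), with Gdf9 and Lamb1 next at 0.94. Ccnb1 was nearest to Cks2 (0.86), which encodes a subunit that binds CDK1, Ccnb2 to Nae1 (0.96), Cdk1 to Atp5g1 (0.97), Pttg1 to Slbp (0.96), Wee2 to Ccndbp1 (0.95) and Fbxo43 to Stard13 (0.96). Cdc20 (Eif4e, 0.77), Fbxo5 (1110038F14Rik, 0.80) and Cdc25b (Ccdc115, 0.72) had no gene as close. These are descriptions over points that share stages, libraries and depth. Among the 10 genes the closest pair was Fbxo43 and Wee2 (0.91), and Cdk1 and Pttg1 were the most opposed (-0.94).

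Of 73 other genes of the same pathways, 68 were tested, and from E2C to L2C 14 were called higher and 18 lower, with a median log2 fold change of -0.12 against 0.03 over all genes. At this step 25.6% of all genes were called higher and 22.8% lower, against which each count below is to be read. The 18 genes of the APC/C and its E2 enzymes gave 6 higher and 2 lower calls. Ube2c, an E2 enzyme of the APC/C, rose from 8.69 ± 2.70 to 97.4 ± 27.4 copies (SD, n = 5 and 6; log2 fold change 3.36 ± 0.39, SE), the subunit gene Anapc7 rose from 1.19 ± 1.01 to 14.0 ± 6.10, and Ube2s, the other E2 enzyme, fell from 23.6 ± 1.77 to 8.56 ± 4.63. In the pathway below Mos, 1 of 6 genes tested was called higher and 3 lower. Map2k1 fell from 65.1 ± 3.59 to 6.72 ± 3.64 copies and Mapk3 from 15.4 ± 3.09 to 4.23 ± 4.62, while Map2k2, the other MAP kinase kinase, rose from 0.65 ± 0.457 to 13.2 ± 4.42.

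Of 10 partners, activators and inhibitors of CDK1 tested, 4 were called higher and 1 lower, with Cdk7 rising from 2.28 ± 1.13 to 16.5 ± 6.55 copies and Cks1b falling from 193 ± 6.74 to 63.3 ± 19.3. Greatwall and the phosphatases gave 2 higher and 2 lower calls of 9, among them Mastl, which encodes Greatwall, at 13.2 ± 3.10 and 3.45 ± 2.14 copies. The cAMP genes of prophase arrest gave 0 higher and 2 lower of 6, and the calcium genes of egg activation 0 higher and 3 lower of 6, with the calcineurin subunit gene Ppp3r1 falling from 23.3 ± 5.54 to 1.67 ± 1.25 copies. Separase and cohesin gave 1 higher and 0 lower of 7. Of the 6 genes for translation of dormant mRNA 5 were called lower and 0 higher, where 22.8% of all genes were called lower; they were led by Dazl, which fell from 69.7 ± 16.8 to 1.90 ± 1.79 copies. At the other steps the counts of the 68 genes stand beside the shares of all genes as follows. From oocyte to zygote 4 were called higher and 0 lower (2.92% and 0.325% of all genes), and from zygote to E2C 5 and 2 (4.52% and 2.75%). From L2C to 4-cell 0 were called higher and 3 lower (2.41% and 4.28%), from 4-cell to 8-cell 1 and 8 (4.47% and 10.5%), and from 8-cell to 16-cell 2 and 1 (1.9% and 1.46%).

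How far the oocyte values depend on the amount of RNA was examined in the split oocytes, for which UMIs per isoform were summed to genes. The depth was 182596 to 281036 UMIs in intact, 129744 to 289774 in 1/2 and 137231 to 275297 in 1/4 oocytes, ranges that overlapped. The comparison thus does not cover a matching drop in counted UMIs. The labels do not say which pieces came from the same oocyte, so the 6 pieces of a group may not be independent and the p-values may be too small. Of the 10 genes 7 passed the low-count filter, and 0 were called between intact and 1/2 or between intact and 1/4 oocytes by edgeR, against 0.506% and 0.542% of all 2767 genes. DESeq2 called 0 as well, and 3 of the 7 had an unadjusted edgeR p under 0.05 in intact against 1/2 oocytes. Mos was at 49.2, 81.1, 92.5 and 71.0 copies in intact oocytes and at 40.9, 56.2 and 64.9 (lowest, median, highest) in 1/2 oocytes, a log2 fold change of -0.39, and at 49.7, 67.1 and 83.8 in 1/4 oocytes. Ccnb2 was at 80.2, 58.6, 79.3 and 82.3 copies in intact oocytes, under all 6 1/2 oocytes (84.4 to 107), a log2 fold change of 0.32. For Ccnb1 it was -0.22. Cdk1, Fbxo5 and Cdc25b had at most 6 UMIs per group there; Cdk1 had 0 in the 1/2 oocytes, which allows up to 0.267 copies, and 2 UMIs in the intact ones.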

How the data were processed

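The 161 cells of runs 1 to 3 and the 16 samples of batch 4 were read as full-length cDNA. The authors used minimap2 for alignment (mm10), gffcompare to name genes, and cDNA_Cupcake and SQANTI3 to merge and filter isoforms, and isoforms seen in fewer than 5 cells were dropped. The authors deposited gene and isoform values of the CPM kind, as copies per 100,000 UMIs of a cell, which is CPM over 10. Some columns (4-cell, L2C and E2C), recorded as a score, were deposited in that same unit and were handled like the others. Batch 4 was deposited as whole UMI counts of 49271 isoforms. Within a tolerance of 0.1, 100% of values above 0 came out as whole UMIs, from which depth and count models were taken.

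The stage and embryo of a cell were read from its column name. The run of oocytes, zygotes, 32-cell blastomeres, blastocyst cells and mESCs was read from the study's cell lists. Embryo means were compared with limma 3.58.1 (trend, array weights) on log2(copies + 1) over 7 stages in 1 fit, with Benjamini-Hochberg adjusted p-values over all features with at least 1 copy in at least 4 embryos. R 4.3.3 was used, with DESeq2 1.42.0 and edgeR 4.0.16 for the recovered UMIs. The share of UMIs at an end, in embryos with at least 20 UMIs of the gene, was compared by exact two-sided permutation over embryos, in Python 3.11.15 (scipy 1.17.1). Ends in the isoform annotation were chained within 25 bases and clusters under 5% were dropped. Sequences and codons came from GENCODE on GRCm38, the build of the files. Split oocytes were compared with edgeR's quasi-likelihood test. The tests were checked on simulated data. Up to 3 isoforms per gene with the most UMIs were named, and, in each pathway list and direction, up to 2 called genes with the largest change at 10 or more copies; some of these are not printed. The genes, lists and tests were chosen with earlier results of these data known. Intervals and floors (3 UMIs) cover counting error only.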

Additional observations from a re-analysis of the deposited data

Results flagged for a closer look

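Of 123 groups of 4 to 10 values examined, 18 held a highest or lowest value far from the rest by Dixon's criterion, which chance meets in about 1 in 20 groups. Oocyte 9 held 145 copies of Mos, where the other 9 oocytes were at 34.5 to 91.1, and oocyte 8 held 666 copies of Pttg1, where the others were at 973.6 to 1216; both are from run 3. Oocyte 6, the only oocyte of run 2, held 2.08 copies of Cdc25b against 0 to 1.11 in the others. Zygote 7, from run 3, held 61.1 copies of Cdc20 against 19.1 to 38.1. The L2C embryo 4 held 4.00 copies of Fbxo43, where the other 5 were at 0 to 0.784. The 4-cell embryo 2 held 2.45 copies of Ccnb2 (1 UMI) against 9.37 to 11.01, and the 8-cell embryo 2 held 0.5255 copies of Wee2 (1 UMI) against 5.36 to 5.87.

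Of the shares at the distal end, Ccnb1 in 8-cell embryo 2 was at 34.1% against 15.6 to 18.5%, Cdc20 in L2C embryo 3 at 52.3% against 76.9 to 85.4%, and Cdc20 in 4-cell embryo 1 at 58.7% against 89.3 to 90.9%. In the batch of split oocytes, 1 intact oocyte held 58.6 copies of Ccnb2 against 79.3 to 82.3. The other cases there are single values above groups at or near 0: Cdk1 at 0.946 copies in an intact and 0.363 in a 1/4 oocyte, Fbxo5 at 1.78 in an intact, 1.24 in a 1/2 and 2.66 in a 1/4 oocyte, and Cdc25b at 2.22 in an intact and 0.363 in a 1/4 oocyte, all from few UMIs.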

How the results depend on the processing

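No called result changed direction under any alternative run; Cdc20 from E2C to L2C, which was not called, had either sign. Of the 10 genes, the number called from oocyte to zygote was 1, and 3 with a pseudocount of 0.1, 2 with edgeR, 2 with DESeq2, 3 at an adjusted p under 0.05 with no fold limit and 3 without the 3 zygotes of run 3 (chosen after seeing the data); the run as a block kept Mos alone. From zygote to E2C it was 2, and 1 with a pseudocount of 0.1, of 5, with edgeR and with DESeq2. From L2C to 4-cell it was 1, and 0 with a pseudocount of 5, without array weights, with edgeR, with DESeq2 and at an adjusted p under 0.05. From 4-cell to 8-cell it was 1, and 0 with a pseudocount of 0.1 or 5, without the filter, without array weights and with DESeq2. From 8-cell to 16-cell it was 0, and 1 with a pseudocount of 0.1. With a pseudocount of 5 the isoform calls were 1, 1 and 22 instead of 3, 5 and 50. With ends joined within 100 bases 6 pairs passed an adjusted p of 0.05 instead of 0. Cdc20, Ccnb2 and Cdk1 then had 1 cluster each and were not tested, so the adjustment ran over fewer pairs. With ends joined within 25 bases but without the 3 zygotes of run 3, 1 pair passed (Wee2, oocyte to zygote). Leaving out 1 embryo at a time of the E2C, 4-cell, 8-cell and 16-cell groups (of the intact group for the split oocytes), and no other oocyte, zygote or L2C embryo, so that the oocyte to zygote counts could hardly move, gave 1 to 1, 2 to 2, 6 to 7, 0 to 1, 0 to 2 and 0 to 1 calls at the 6 steps, 8 to 8 between oocytes and 16-cell embryos, 3 to 3, 4 to 7 and 48 to 51 isoform calls and 0 to 0 for ends and split oocytes; the 8-cell to 16-cell call was Ccnb1 without 16-cell embryo 3 or 4. Over all genes the higher and lower calls at E2C to L2C were 2990 and 2664, and 1697 and 2395 with DESeq2, whose median log2 fold change there was -0.52; at 4-cell to 8-cell they were 522 and 1227, and 628 and 606 with edgeR; at 8-cell to 16-cell 222 and 171, and 195 and 66 with edgeR. The causes were not tested. No paired analysis was possible because the embryo numbers of different stages name different embryos. Depth limits Cdc25b, Fbxo5, and Mos and Fbxo43 after E2C, which rest on few UMIs a stage.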
